A study of Mus musculus with 2 samples.

Results

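The genes described here are 9 members of the YAP-TEAD pathway, measured in single cells of healthy and injured mouse liver. They were taken by name from a fixed list and matched between the 2 deposited matrices by Ensembl identifier, and all 9 were found among the 30406 genes that both matrices hold. The list was chosen with earlier results of these data known, so shares of the 9 set beside all genes are descriptions only. The 5 targets Ccn1, Ccn2, Ankrd1, Amotl2 and Ajuba stood beside the coactivators Yap1 and Wwtr1, their DNA-binding partner Tead1 and the kinase Lats2. The healthy matrix lists Ccn1 under its older symbol Cyr61 and Ccn2 as Ctgf.

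In the Hippo pathway, the kinases LATS1 and LATS2 phosphorylate the coactivators YAP (Yap1) and TAZ (Wwtr1) and keep them out of the nucleus. When the kinases are inactive, as in cells that are stretched or spread on a stiff matrix, YAP and TAZ enter the nucleus and switch on target genes together with TEAD factors. In the liver, YAP is known for high activity in bile duct cells and low activity in mature hepatocytes, and for the activation of stellate cells in fibrosis.

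One library came from healthy mice and 1 from mice injected with CCl4, a liver toxin, for 12 weeks with 2 injections per week. All animals carried Col1a2CreER and Rosa26tdTomato on a C57BL/6 background, an inducible Cre under a collagen promoter that marks cells expressing Col1a2. Per the paper, the marked cells were mesenchymal without injury, and after injury they also included damaged hepatocytes. The injured animals were 8 to 10 weeks old at the start, and both sexes were used in the study. Livers were digested with pronase and collagenase, purified on a Nycodenz gradient and, per the study's methods, depleted of CD45-positive immune cells before 10x Genomics 3′ sequencing. The number of animals behind each library was not given in the sources used here. With 1 library per group there was no replicate, so no test between groups was made, and all intervals (95%, in square brackets) cover counting error only. Injury cannot be told apart from any other difference between the 2 libraries.

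After filtering, 5602 healthy and 7314 CCl4 cells remained, with medians of 6783.5 and 11876 unique molecular identifiers (UMIs, each counting 1 captured RNA molecule). The libraries shared 8 barcodes among these cells. Clusters were named from fixed marker lists, and the names carry "-like" for that reason. The healthy library was mainly 3509 endothelial-like and 1264 cholangiocyte-like cells, the latter with all 13 of the cholangiocyte markers enriched. The CCl4 library held 14 and 20 such cells. It was mainly mesenchymal-like (3090 cells against 10 healthy ones), and 2702 of its cells stayed in unnamed clusters. The mesenchymal-like count includes a cluster of 192 cells (cluster 11) with 7 mesenchymal markers enriched, whose leading genes were nevertheless the granule genes Mpo, Elane, Ctsg and Prtn3 of immature neutrophils and genes of the cell cycle. Mesothelial-like cells, which line the liver surface, were the 1 large class in both libraries (231 healthy and 879 CCl4 cells). Comparisons of injury within a class therefore rest mostly on them.

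TEAD factors bind the letters GGAATG, also read as CATTCC on the other strand. RefSeq (GRCm38.p6) gave the 250 bases before a transcript start for 7 of the 9 genes, and Ccn2 and Tead1 had no entry. The letters were found, on either strand, in 6 of the 7 (all but Lats2), against 12.6% of 32851 promoters. Ankrd1 and Ajuba held 2 copies, as did 1.02% of all promoters. The 4 target genes with an entry are shown 5′ to 3′ on the gene's own strand, because their transcripts carry the results below, and the capitals mark GGAATG or CATTCC. The coordinates are chr3:145649986-145650235 (Ccn1, minus strand), chr19:36119845-36120094 (Ankrd1, minus), chr9:102717554-102717803 (Amotl2, plus) and chr14:54577662-54577911 (Ajuba, minus). The Amotl2 window lies inside the annotated gene, which begins at base 102717091, so it precedes a later transcript start.
Ccn1: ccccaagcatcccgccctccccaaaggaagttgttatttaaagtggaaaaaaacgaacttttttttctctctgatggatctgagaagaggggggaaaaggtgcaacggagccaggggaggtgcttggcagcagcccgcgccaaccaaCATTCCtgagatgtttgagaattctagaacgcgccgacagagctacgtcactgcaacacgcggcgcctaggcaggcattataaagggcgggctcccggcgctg
Ankrd1: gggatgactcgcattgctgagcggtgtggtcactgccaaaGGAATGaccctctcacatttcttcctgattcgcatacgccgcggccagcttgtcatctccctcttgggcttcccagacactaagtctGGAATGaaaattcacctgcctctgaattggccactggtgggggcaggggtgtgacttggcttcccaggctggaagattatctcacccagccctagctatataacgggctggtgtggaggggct
Amotl2: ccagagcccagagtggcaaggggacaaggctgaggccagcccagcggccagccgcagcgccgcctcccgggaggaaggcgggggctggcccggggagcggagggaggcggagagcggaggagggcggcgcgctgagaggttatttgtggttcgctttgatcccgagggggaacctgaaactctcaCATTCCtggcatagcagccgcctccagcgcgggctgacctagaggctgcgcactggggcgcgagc
Ajuba: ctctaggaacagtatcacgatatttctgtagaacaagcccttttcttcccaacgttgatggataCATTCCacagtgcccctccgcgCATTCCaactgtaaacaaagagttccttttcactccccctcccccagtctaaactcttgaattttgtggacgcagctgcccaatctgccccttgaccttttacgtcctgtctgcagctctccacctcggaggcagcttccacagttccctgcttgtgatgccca
The copy before Ccn1 began 103 bases upstream of the transcript start and the copy before Amotl2 65 bases upstream. In Ankrd1 they began 210 and 123 bases upstream, and in Ajuba 186 and 164. The AP-1 motif TGANTCA, bound by FOS and JUN proteins, was in none of the 7 windows and in 6.75% of all promoters. A match of letters describes the sequence and does not show that a factor binds there.

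Among healthy cells, the targets Ccn1, Ccn2, Ankrd1 and Ajuba were higher in cholangiocyte-like cells than in the other cells pooled, while the coactivators were not. The pool is mostly endothelial-like, and a small endothelial-like cluster in it, described below, held more Ccn2 than the cholangiocyte-like cells. Ccn1 encodes a secreted matrix protein and stood at 1000.4 CPM (UMIs of the gene in every 1000000 UMIs) [985.8, 1015] in cholangiocyte-like cells against 142.3 in the other cells, a ratio of 7.03 [6.79, 7.27]. Ccn2, its relative and a fibrosis mediator, stood at 343.7 CPM [335.2, 352.4] against 68.4, a ratio of 5.03 [4.77, 5.29]. Ankrd1, an ankyrin repeat protein of the nucleus and sarcomere, was closest to being limited to this class, with 436.4 CPM [426.8, 446.2] against 10.8 and a ratio of 40.2 [35.9, 45.3]. Those other cells include an unnamed cluster of 170 healthy cells of low depth with 10 of 13 cholangiocyte markers enriched, in which Ankrd1 was 482.3 CPM [412.1, 561.0]. Ajuba, a LIM protein that inhibits LATS kinases, was at 65.4 CPM, 3.86 times [3.46, 4.30] the other cells.

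The other genes showed no shared pattern in the cholangiocyte-like cells. Tead1 was 2.22 times [2.09, 2.36] the level in other cells (135.6 CPM). Yap1 was lower, at 40.1 CPM and a ratio of 0.813 [0.742, 0.890], and Wwtr1 was also lower, at 65.2 CPM and 0.597 [0.557, 0.638]. The target Amotl2, an angiomotin that binds YAP, reached 0.631 times the other cells and the inhibitory kinase Lats2 0.388 times [0.356, 0.423]. In all, 5 of the 9 genes were at least 2-fold higher, against 19.5% of the 14554 genes compared. Only transcripts were measured, not the amount or the location of the YAP and TAZ proteins.

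Low levels were also counted in cells not known for these genes. The 506 immune-like cells of the CCl4 library held Ccn1 at 22.6 CPM, Ccn2 at 6.56, Amotl2 at 8.20 and no UMI of Ankrd1. In the healthy library, hepatocyte-like cells held Ccn1 at 48.5 CPM [40.7, 57.5] and Ankrd1 at 10.9 [7.33, 15.5]. Marker RNA of hepatocytes was also counted in other cells, and the 14 hepatocyte markers summed to 8044 CPM in the cholangiocyte-like cells. The part of free RNA in any of these levels was not tested. Endothelial-like cells held Ankrd1 at only 1.95 CPM [1.38, 2.66].

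**Figure D1:**
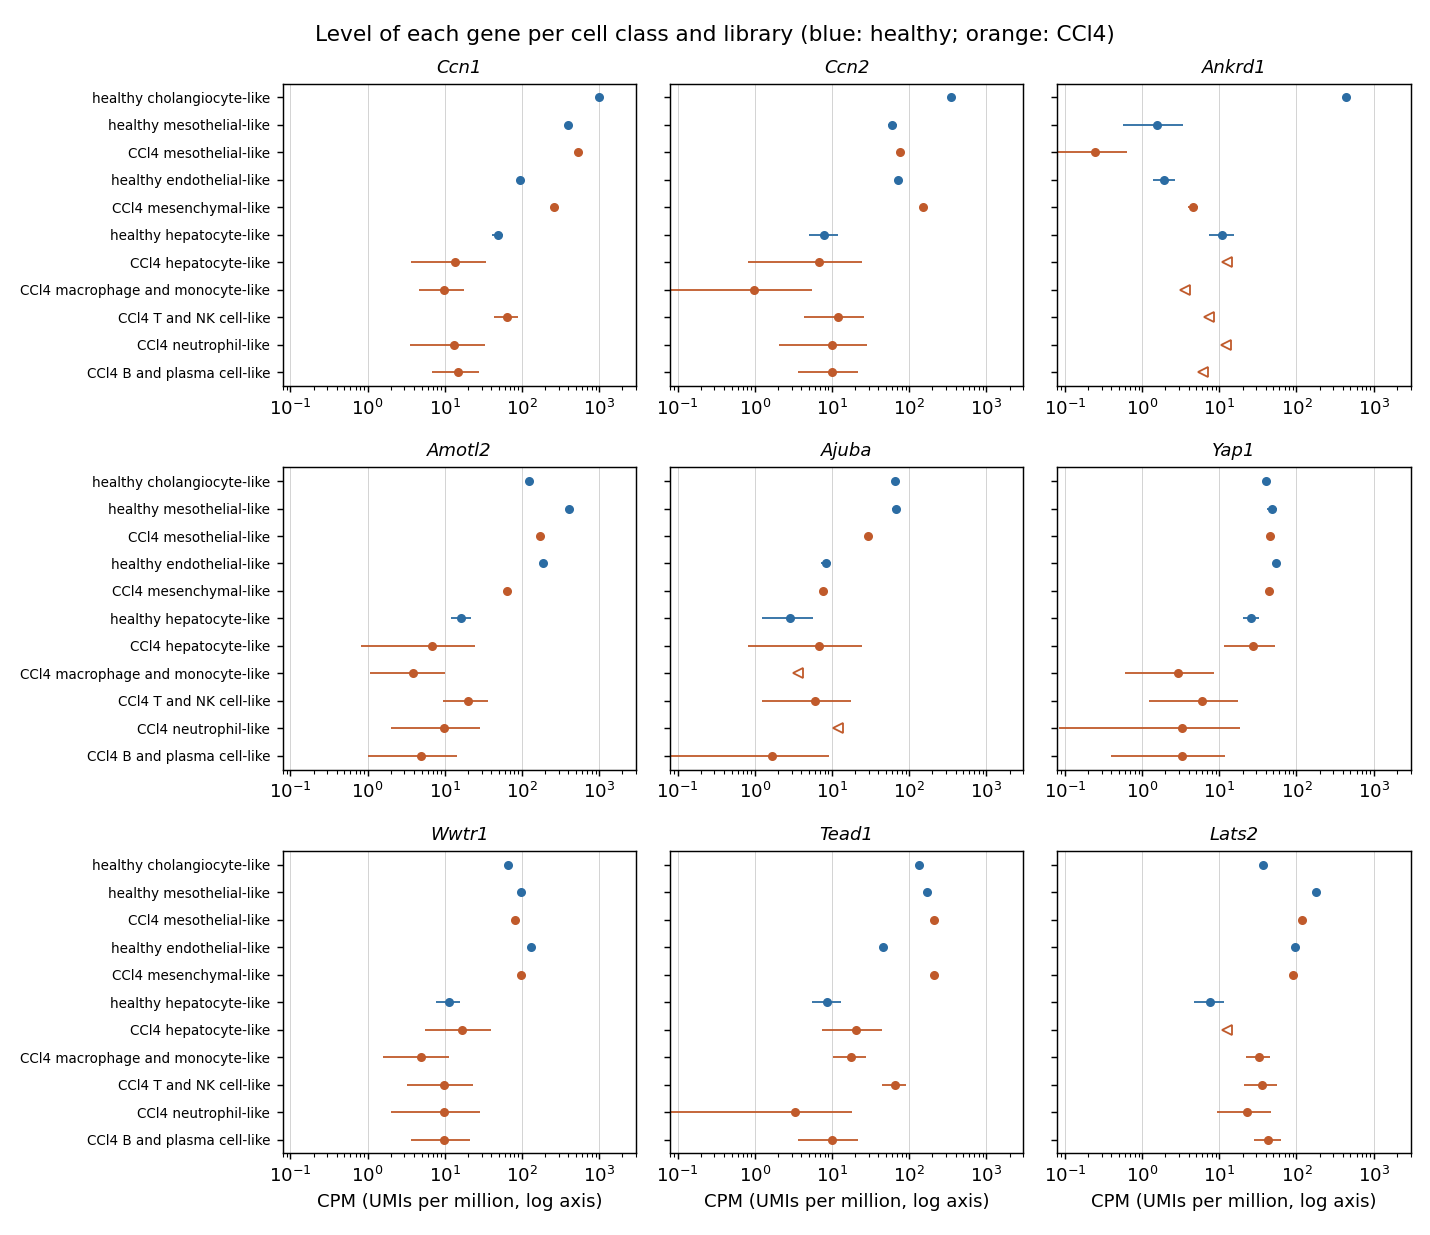
Level of the 9 genes (CPM, log axis) in each class of at least 50 cells, healthy in blue and CCl4 in orange. Points are sums over the cells of a class, lines are 95% Poisson intervals and open triangles mark the upper limit where no UMI was found. Ankrd1 stands at 436.4 CPM in healthy cholangiocyte-like cells and at 10.9 CPM or less in every other class shown.

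Ordering the named classes of at least 50 cells by level put the genes into different places. Ccn1 was highest in healthy cholangiocyte-like cells, followed by CCl4 mesothelial-like cells (529.3 CPM) and healthy mesothelial-like cells (390.4 CPM), and these intervals did not overlap. Ccn2 was highest in the same cholangiocyte-like cells and next in CCl4 mesenchymal-like cells (151.0 CPM [147.4, 154.7]). This order is of whole classes, and the healthy large-vessel endothelial cluster described below held more Ccn2 than either. Amotl2 peaked in healthy mesothelial-like cells (407.6 CPM [387.6, 428.3]), before healthy endothelial-like cells (188.9 CPM [182.9, 195.0]). Healthy mesothelial-like cells held 4 of the 9 genes (Amotl2, Ajuba, Tead1 and Lats2) at least 2-fold above the rest of the library, against 10.8% of genes. In the CCl4 library they held 3 (Ccn1, Amotl2 and Ajuba), against 10.4%. Lats2 also peaked in healthy mesothelial-like cells (177.6 CPM [164.5, 191.5]). Ajuba did not differ beyond counting error between healthy mesothelial-like (68.2 CPM [60.2, 77.0]) and cholangiocyte-like cells.

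The coactivators were more even. Yap1 lay between 40.1 and 54.6 CPM in the cholangiocyte-, mesothelial-, endothelial- and mesenchymal-like classes of at least 50 cells. Among the named classes Wwtr1 was highest in healthy endothelial-like cells (130.3 CPM [125.4, 135.4]), with a ratio of 2.08 [1.96, 2.22] over the rest of that library, the only 1 of the 9 past 2-fold there against 18.3% of genes. The unnamed CCl4 cluster of 642 cells with endothelial markers held more, 219.3 CPM [205.5, 233.8]. Tead1 was 206.7 CPM [202.4, 211.0] in CCl4 mesenchymal-like and 207.0 CPM [200.03, 214.2] in CCl4 mesothelial-like cells, intervals that overlap.

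Within the healthy endothelial-like class, Ccn1 and Ccn2 were uneven between clusters. A cluster of 217 cells with all 7 large-vessel endothelial markers enriched held Ccn1 at 457.5 CPM [427.3, 489.3] and Ccn2 at 429.5 CPM [400.3, 460.4]. Its Ccn2 was above the 343.7 CPM of the healthy cholangiocyte-like class, and its Ccn1 was below the 1000.4 CPM there. In the largest sinusoidal cluster (2203 cells) the same genes stood at 47.95 CPM [44.5, 51.6] and 29.95 CPM [27.2, 32.9]. Amotl2 was even, at 168.8 [150.7, 188.5] and 195.2 [188.1, 202.4] CPM, and so was Tead1, with overlapping intervals of [40.4, 61.2] and [40.8, 47.6] CPM. Ankrd1 had 3 UMIs in the large-vessel cluster.

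The 20 cholangiocyte-like cells of the CCl4 library were too few for a class of their own and are given as values. Ccn1 stood at 785.5 CPM [662.4, 924.7] and Ankrd1 at 1015 CPM [874.0, 1171], from 144 and 186 UMIs, and 65.0% of the cells had an Ankrd1 UMI. Ccn2 stood at 196.4 CPM [137.5, 271.9]. Over all deposited cells the healthy matrix held 8618 Ankrd1 UMIs and the CCl4 matrix 746. Of the 650 in kept CCl4 cells, the 20 cholangiocyte-like cells held 186 and the 3090 mesenchymal-like cells 198.

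In CCl4 mesenchymal-like cells, the collagen-producing class, Ccn2 was 2.39 times [2.287, 2.4999] the other cells of the library. It was the only one of the 9 genes at least 2-fold higher there, a share close to the 10% of 15395 genes compared. Those other cells include an unnamed cluster of 82 cells, with 7 of 10 stellate markers and all 6 central sinusoidal endothelial markers enriched. Without the 192 cells led by neutrophil granule genes the ratio of Ccn2 was 2.36 [2.26, 2.46]. Ccn2 stayed the only one of the 9 past 2-fold, against 9.54% of genes. Ccn1, at 263.7 CPM, was 0.848 times [0.828, 0.870] the other cells. Between its clusters, the one with 9 of 10 stellate markers enriched (1586 cells) held Ccn1 at 332.4 CPM [324.9, 339.9]. The other large cluster (1312 cells), with only 3 of 7 smooth muscle and 3 of 10 portal fibroblast markers enriched, held it at 187.1 CPM [180.8, 193.5]. Ccn2 was 172.3 and 130.1 CPM, and Tead1 ran the other way, at 189.1 [183.5, 194.8] and 232.7 [225.7, 239.9] CPM. An unnamed CCl4 cluster of 596 cells kept Ccn1 at 227.8 CPM [219.7, 236.1] with Ccn2 at 9.60 CPM [7.99, 11.4].

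Over the 11 populations of at least 50 cells, the genes whose log2(CPM + 1) followed Ccn1 most closely were Atp9a, Zfp462, Laptm4b, B9d1 and Bace1, with Pearson r from 0.967 to 0.955. Those closest to Ccn2 were Tbc1d19, Bace1, Plekhh3, Eid2 and Laptm4b, with r from 0.956 to 0.928. Bace1 and Laptm4b stood on both lists, and Ccn1 and Ccn2 followed each other at 0.909. The populations come from 2 libraries and share their depth and free RNA, and 10963 genes were compared, so these values are descriptions.

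Other genes of the pathway were present in the healthy cholangiocyte-like cells. The 22 Hippo core and regulator genes summed to 1325 CPM, led by Wwc1 (KIBRA, which helps to activate LATS) at 351.2 CPM, the kinase Map4k4 at 100.9 and Vgll4, a TEAD cofactor that competes with YAP, at 99.3. The 17 other YAP target genes summed to 830.3 CPM, led by Rbms3 at 163.5, the coagulation starter F3 at 137.4 and Tgfb2 at 114.2. The other CCN genes, Ccn3 to Ccn6, were close to absent from these cells, at 1.17 CPM in all 4. They reached their highest sum, 38.8 CPM, in CCl4 mesenchymal-like cells, of which Ccn4 was 29.9.

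Healthy cholangiocyte-like cells differed among themselves in Ccn1, Ccn2 and Ankrd1 far more than counting error gives. To set cells of different depth side by side, each cell was thinned to 2000 UMIs, which left out 2 cells and kept 1262. After thinning, 69.2% [66.6, 71.7] of the cells had a Ccn1 UMI, 36.0% [33.3, 38.7] a Ccn2 UMI and 36.8% [34.2, 39.6] an Ankrd1 UMI. Without thinning, at a median of 11690 UMIs, the shares were 94.1%, 73.4% and 69.9%. In healthy endothelial-like cells, thinned alike, Ankrd1 was seen in 0.480% [0.264, 0.801] of cells.

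The variance of the thinned counts over their mean, which is 1 for counting error alone, was 2.62 for Ccn1, 2.26 for Ccn2 and 3.45 for Ankrd1. Those 3 of the 9 genes passed a ratio of 1.5, against 1.05% of 10491 genes, whose median was 1.007. The ratio grows with level. Among the 484 genes within 2-fold of the mean of Ankrd1, 1 had a higher ratio, and 5 of 196 did for Ccn1 and 9 of 683 for Ccn2. For the other 6 genes, from Wwtr1 to Amotl2, it lay between 1.006 and 1.053.

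The spread was wide and had no gap. Ccn1 per 10000 UMIs ran from 1.06 at the 10th percentile through a median of 7.17 to 23.1 at the 90th. The medians of Ccn2 and Ankrd1 were 1.59 and 1.45, with 90th percentiles of 9.39 and 11.96. The 10% of cells with most Ankrd1 held 51.1% of its UMIs, and the same share was 44.6% for Ccn2 and 30.8% for Ccn1. A single cell reached 99 UMIs of Ankrd1.

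**Figure D2:**
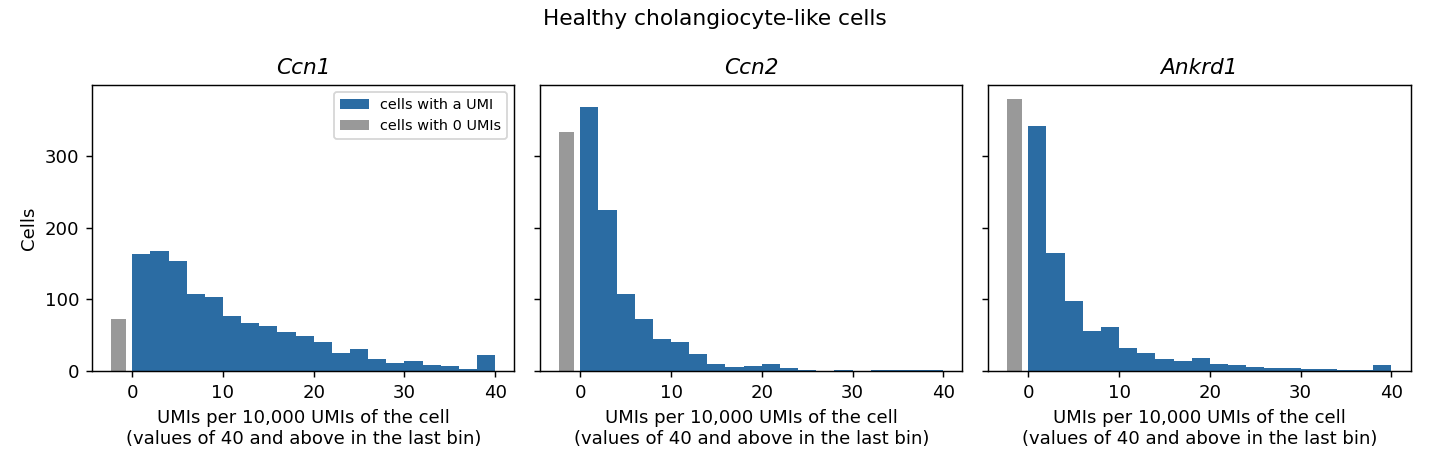
Number of healthy cholangiocyte-like cells (y axis) by the level of Ccn1, Ccn2 and Ankrd1 in UMIs per 10000 UMIs of the cell (x axis), with cells at 0 in grey. All 3 distributions fall off without a second peak, and the median is 7.17 for Ccn1 against 1.59 for Ccn2 and 1.45 for Ankrd1.

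The 3 variable targets were positively but weakly correlated across cells. Pearson r across the 1262 cells, on log levels, was 0.309 between Ccn1 and Ankrd1, 0.185 between Ccn2 and Ankrd1 and 0.104 between Ccn1 and Ccn2. In thinned cells, Ankrd1 was found in 41.4% [38.1, 44.7] of cells with Ccn1 and 23.4% [19.2, 27.9] of cells without it. Ccn2 was found in 35.7% [32.5, 39.0] and 32.5% [27.8, 37.4], shares whose intervals overlap. Of all cells, 13.5% had none of the 5 targets, 36.4% had 2 and 0.317% had all 5. The cells come from 1 library and share its depth and free RNA, which these values do not remove. Counting error in genes with few UMIs lowers r, and its part was not tested.

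Ccn1 moved with the immediate early genes and Ccn2 did not. These genes, such as Fos, Jun, Egr1 and Atf3, switch on within minutes of a stimulus, are also known to rise when tissue is dissociated, and Ccn1 itself is known as one of their kind. With the sum of 18 listed immediate early genes, r across cells was 0.537 for Ccn1, 0.194 for Ankrd1 and 0.150 for Amotl2, but -0.0052 for Ccn2. From the 10% of cells with the lowest sum to the 10% with the highest, mean Ccn1 went from 2.43 to 15.7 UMIs per 10000, while Ccn2 was 3.09 and 2.92. Ankrd1 was 1.95 in the lowest 10%, reached 7.02 between the 70th and 80th percentiles and was 4.90 in the highest 10%. The part of dissociation in these levels was not tested.

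The contrast between Ccn1 and Ccn2 was of unequal width in other populations. Over 11 populations of at least 200 cells, r of Ccn1 with the immediate early genes was 0.613 in CCl4 mesothelial-like cells, 0.542 in the stellate-marker cluster and 0.323 in the other large mesenchymal-like cluster. It was 0.131 to 0.156 in the 3 healthy endothelial-like clusters. In the largest of these, 21.8% of cells had a Ccn1 UMI and 7.84% a Ccn2 UMI. The part of such low counts in r was not tested. Ccn2 stayed between -0.104 and 0.208 everywhere, with its highest value in healthy mesothelial-like cells, where Ccn1 was close at 0.276. In each of the 11 populations Ccn1 had the higher r of the pair. In the 7 sub-clusters of the cholangiocyte-like cells, r was 0.280 to 0.600 for Ccn1 and -0.213 to 0.131 for Ccn2.

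Genes that followed the sum of the 5 targets most closely were mostly immediate early genes. Among 1640 genes of at least 100 CPM the highest were Dusp1 (r 0.438), Atf3 (0.436), Rhob (0.412), Klf6 (0.405) and Junb (0.393), all but Rhob on the immediate early list. The lowest was mt-Cytb (-0.222). Ccn1 is the most abundant part of that sum, and the 5 named genes had r from -0.035 to 0.144 with Ccn2 and from 0.033 to 0.097 with Ajuba. For single targets, a list added after the values were seen, Ccn1 was closest to Atf3 (0.529), whereas Ccn2 was closest to Jag1 (0.262), the Notch ligand that patterns bile ducts, and Sema3c (0.227). Ajuba was closest to Anxa3 (0.225), which was also among the 5 closest to Ccn2 (0.227). Of the other YAP targets at this level, Tgfb2 and F3 followed the sum at 0.168 and 0.162.

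Sub-clusters of the cholangiocyte-like cells, built without the 9 genes, their pathway and the immediate early genes, differed in the targets. A sub-cluster of 88 cells led by Dmbt1, Sprr1a, Lgals4 and Tff2, genes of mucosal epithelia, had the highest Ccn2 (663.5 CPM [619.2, 710.2]), against 232.4 to 401.5 in the other 6. Its Ajuba was 95.02 CPM [78.7, 113.7], and its Ccn1 of 1272 CPM [1210, 1336] was shared with 3 others at 1198 to 1264. There the targets also moved together more, with r of 0.409 between Ccn1 and Ccn2 and 0.465 between Ccn2 and Ankrd1. A sub-cluster of 332 cells led by genes of sterol metabolism such as Insig1 and Hmgcs1 paired a lower Ccn1 (867.3 CPM) with the next highest Ccn2 (401.5 CPM [385.1, 418.4]). The lowest Ccn2 (232.4 CPM [216.9, 248.6]) was in a sub-cluster of 272 cells led by hepatocyte genes (Ahsg, Serpina10, Gc). Its hepatocyte markers summed to 10221 CPM, the highest of the 7, against 5146 CPM in the sub-cluster with the highest Ccn2, and their part in the Ccn2 levels was not tested. Its Ccn1 was 1264 CPM. Interferon response genes (Ifit3, Rsad2, Isg15) led a sub-cluster of 74 cells, whose Ccn1 was 1256 CPM and Ccn2 279.1 CPM.

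Ccn1, Ankrd1, Amotl2 and Ajuba were lowest in a sub-cluster of 143 cells, with Ccn1 at 438.2 CPM [402.4, 476.4] and Ankrd1 at 151.1 CPM [130.4, 174.2]. The intervals of Amotl2 (97.8 CPM [81.3, 116.7]) and Ajuba (42.1 CPM [31.6, 55.1]) overlapped those of other sub-clusters. The immediate early genes of the 143 cells summed to 6666 CPM against 14430 to 18043 in the other 6. Their mitochondrial share was 6.94% against 4.83% to 5.60%, and their median depth was the lowest (8800 UMIs). The part of these measures in the low values was not tested. Without these cells, Ccn1 in the class was 1043 CPM and Ankrd1 458.0 CPM, r of Ccn1 with the immediate early genes was 0.477 and that of Ankrd1 0.104. Yap1, Wwtr1 and Lats2 were even, with Yap1 between 38.4 and 55.8 CPM over the 7. Tead1 ran from 116.1 CPM [98.0, 136.5] in the 143 cells to 169.5 CPM [155.3, 184.6] in a sub-cluster of 156 cells.

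**Figure D3:**
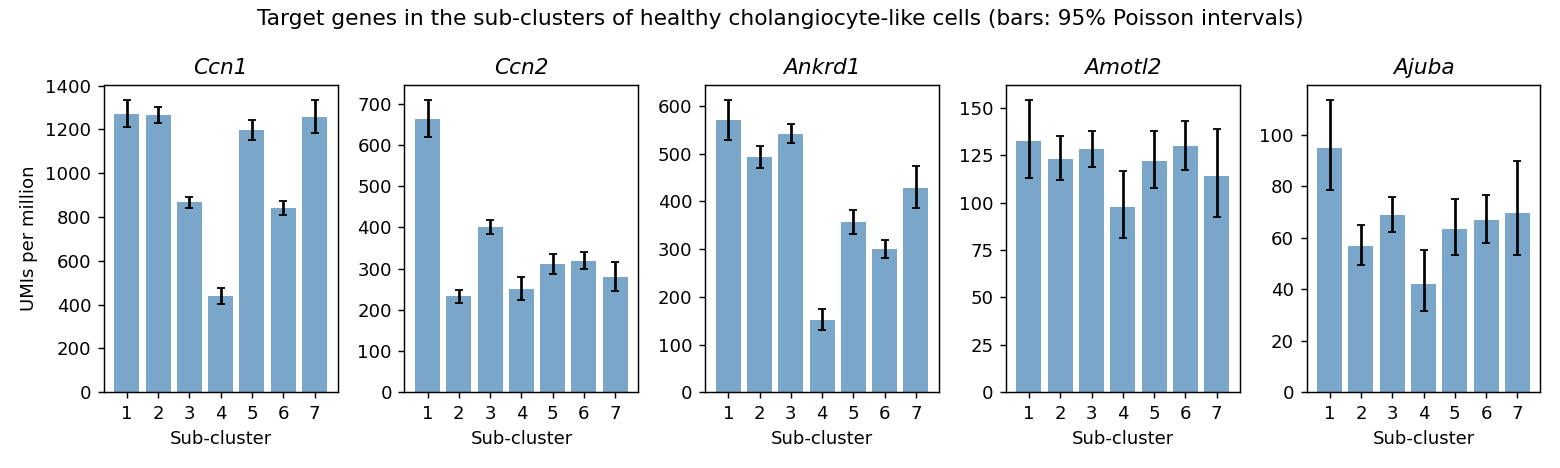
Level of the 5 targets (CPM) in 7 sub-clusters of healthy cholangiocyte-like cells, with 95% Poisson intervals. Sub-cluster 1 (88 cells) has the highest Ccn2 at 663.5 CPM, and sub-cluster 4 (143 cells) the lowest Ccn1 and Ankrd1 at 438.2 and 151.1 CPM.

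The levels also differed with depth. In 3 groups of equal size by total UMIs, Ccn1 was 912.0, 1177 and 940.6 CPM from the shallowest to the deepest, and Ccn2 was 280.5, 331.7 and 372.3 CPM. Ankrd1 was 289.3, 492.0 and 459.9 CPM.

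Within mesothelial-like cells, the targets parted in CCl4 against healthy: Amotl2 and Ajuba were lower and Ccn1 and Ccn2 were slightly higher. Amotl2 went from 407.6 CPM (1565 UMIs) to 170.5 CPM (2742 UMIs), a ratio of 0.418 [0.393, 0.445]. Ajuba went from 68.2 to 29.1 CPM, a ratio of 0.426 [0.366, 0.498]. These were the 2 of 8 measured genes past 2-fold, and both were lower. Of 12306 genes, 12.7% were at least 2-fold lower and 12% higher. Ccn1 was 390.4 CPM in healthy and 529.3 CPM in CCl4 cells (ratio 1.36 [1.28, 1.43]) and Ccn2 60.4 and 76.3 CPM (1.26 [1.097, 1.46]). Ankrd1 had 6 and 4 UMIs, too few for a ratio.

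The coactivators, Tead1 and Lats2 stayed within 2-fold. Lats2 was 0.661 times [0.605, 0.722] the healthy level, Wwtr1 0.837 times [0.746, 0.941], Tead1 1.21 times [1.11, 1.32], and Yap1 did not differ beyond counting error (0.937 [0.796, 1.11]). The class came from different clusters in the 2 libraries: 229 of the 231 healthy cells lay in 1 cluster (cluster 6) and all 879 CCl4 cells in another (cluster 20). The immediate early genes summed to 9444 CPM in healthy and 13294 CPM in CCl4 cells, 7 of 18 at least 2-fold higher and 3 lower. The heat shock genes Hspa1a and Hspa1b were the highest of them and Klf2 and Klf4 the lowest. Their part in the ratio of Ccn1 was not tested.

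Other genes of the pathway also went both ways in mesothelial-like cells. Of 22 Hippo core and regulator genes, 21 were measured, 4 were at least 2-fold higher and 4 lower. Map4k4, a kinase that acts upstream of LATS, was 4.42 times [3.81, 5.16] the healthy level, and the TEAD family member Tead2 3.15 times [1.28, 10.0] from 5 healthy UMIs. At the other end, Tead4 was 0.157 times [0.0858, 0.280] and Wwc1 0.215 times [0.196, 0.234]. Of 17 other YAP targets, 15 were measured, 4 were higher and 6 lower, with a median log2 ratio of -0.25 against -0.04 over all genes. Igfbp3, which binds insulin-like growth factors, had 5 healthy and 2257 CCl4 UMIs and a ratio of 107.7 [46.1, 332.1]. Ccdc80, a matrix protein, was 8.07 times [7.34, 8.90] the healthy level. These 2 genes stood at 140.3 and 923.1 CPM in the CCl4 mesothelial-like cells. In the CCl4 immune-like cells they stood at 27.5 and 112.8 CPM, and the part of free RNA in the ratios was not tested. F3 was 0.170 times [0.155, 0.187], Nt5e 0.165 times [0.0623, 0.418] from 13 and 9 UMIs, Crim1 0.253 times [0.240, 0.267] and Tgfb2 0.293 times [0.271, 0.317].

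**Figure D4:**
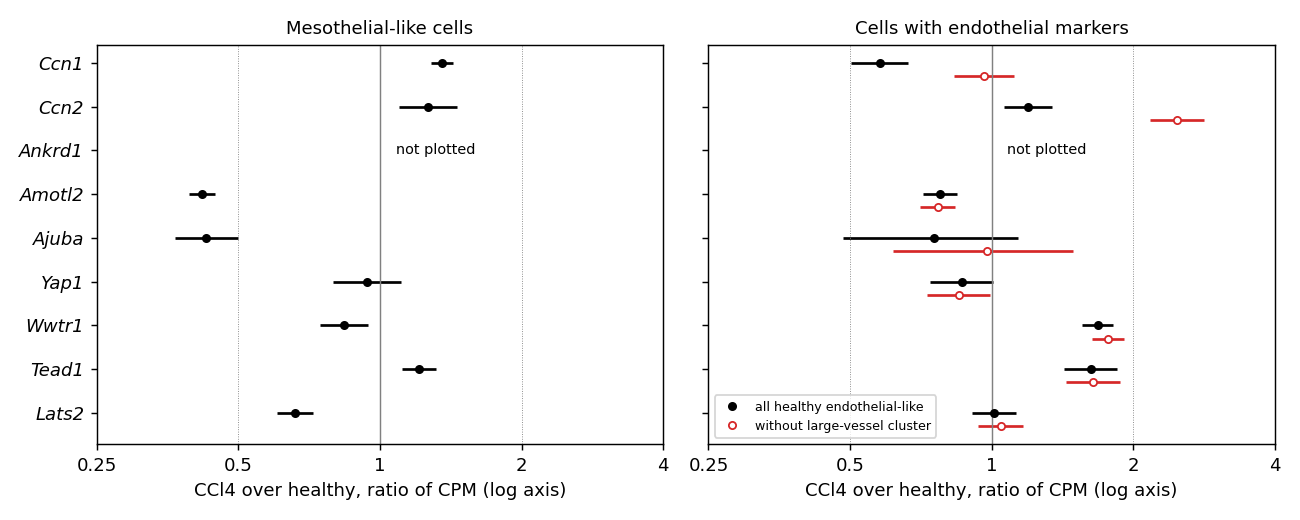
Ratio of CPM in CCl4 over healthy (log axis, lines are 95% exact binomial intervals) for the 9 genes in mesothelial-like cells and in cells with endothelial markers. Dotted lines mark 2-fold, and Ankrd1 is not plotted because a library had fewer than 3 UMIs or the total was under 20. On the right, open red points leave out the healthy large-vessel cluster, which moves Ccn1 from 0.578 to 0.965 and Ccn2 from 1.19 to 2.48.

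Cells with endothelial markers could be compared only across a named and an unnamed cluster. The CCl4 cluster of 642 cells had 14 of 16 endothelial markers enriched but haemoglobin genes led it, and the median log2 ratio of all 12058 genes was -0.34. Against healthy endothelial-like cells, Ccn1 was 0.578 times [0.501, 0.663], Ccn2 1.19 times [1.06, 1.34], Wwtr1 1.68 times [1.56, 1.81] and Tead1 1.62 times [1.42, 1.85]. Amotl2 was 0.777 times [0.713, 0.846] and Lats2 1.01 times [0.907, 1.13]. Ankrd1 went from 39 UMIs (only 1.95 CPM) to 0 and was the 1 of 9 genes past 2-fold, where 5.98% of genes were higher and 18.9% lower. The part of free RNA in those 39 UMIs was not tested.

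The ratios of Ccn1 and Ccn2 turned on the large-vessel cells in the healthy class. The 217 cells of that cluster held 851 of its 1863 Ccn1 UMIs and 799 of its 1420 Ccn2 UMIs, while the CCl4 cluster had 1 of 7 large-vessel markers enriched. Leaving them out, a choice made after seeing the data, Ccn1 was 55.7 CPM in healthy and 53.7 CPM in CCl4 cells, a ratio of 0.965 [0.832, 1.11] that includes 1. Ccn2 was 34.2 and 84.7 CPM, a ratio of 2.48 [2.17, 2.83], so that Ccn2 was past 2-fold and higher, where 6.49% of genes were higher and 18.5% lower. Against the largest sinusoidal cluster alone the ratios were 1.12 [0.961, 1.30] for Ccn1 and 2.83 [2.45, 3.25] for Ccn2. Wwtr1 and Tead1 were 1.77 [1.64, 1.91] and 1.64 [1.44, 1.87] without the large-vessel cells.

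In hepatocyte-like cells the counts were small, and the class came from different clusters in the 2 libraries. Of the 320 healthy cells, 48 deep ones (median 42576.5 UMIs) formed a cluster with no CCl4 cell and held 67.5% of the UMIs of the class, while the other 272 shared a cluster with all 103 CCl4 cells. Ccn1 had 134 UMIs in 320 healthy cells and 4 in 103 CCl4 cells, a ratio of 0.278 [0.0747, 0.729], where 20.3% of 5939 genes were at least 2-fold lower and 17.5% higher. Within the shared cluster it was 69.0 CPM (62 UMIs) and 13.5 CPM, a ratio of 0.196 [0.0517, 0.527], where 20.7% of genes were lower. Ankrd1 (27 UMIs against 0) and Amotl2 (25 against 2) were also past 2-fold lower in that cluster, and Yap1 was not (ratio 1.43). That cluster held 27 of the 30 Ankrd1 UMIs of the healthy class. The part of free RNA in these ratios was not tested. Over the whole class, Yap1 had 72 and 8 UMIs and a ratio of 1.04 [0.431, 2.15], and Tead1 24 and 6 UMIs and a ratio of 2.33 [0.779, 5.85], which includes 1. Wwtr1 had 31 and 5 UMIs and a ratio of 1.504 [0.457, 3.90], and the other 5 genes had fewer than 3 UMIs in the CCl4 cells.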

How the data were processed

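The deposited values are UMI counts, 1 matrix of genes by cell barcodes for each library, left by the authors without normalization and written by Cell Ranger 3.1.0 (healthy) and 6.0.1 (CCl4) per the file headers, with 31053 and 32285 genes. The submitters' processing notes name fastp, featureCounts, mm10 and GRCh38, and the identifiers are those of mouse. Cells with at least 500 UMIs, 200 genes and at most 30% mitochondrial UMIs were kept, which left out 418 healthy and 659 CCl4 cells, and 277 and 487 cells with the highest doublet scores were removed.

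Both libraries were clustered together (scanpy 1.11.5, 2000 variable genes without the 9 genes, their pathway and the immediate early genes, 10 principal components, 20 neighbours, Leiden resolution 1). A cluster was named from at least 3 enriched markers (at least 2-fold higher, in at least 10% of cells). UMIs were summed per class and divided by all UMIs of the class (CPM). Intervals are exact Poisson, exact conditional binomial for ratios and Clopper-Pearson for shares. A ratio needed at least 20 UMIs in all and 3 in each library, or a bound past 2-fold. Shares at 2000 UMIs are expected values over random draws, and those for pairs of genes come from 1 draw. Correlations used log levels per 10000 UMIs, in cells with at least 2000 UMIs. No test was run, since each group is 1 library. The scripts were tested on simulated data. The genes named are the 9 members. From each list they are the 3 with the highest CPM in the population described, and the 2 highest and 2 lowest ratios. By correlation they are the 5 closest over populations and the highest 10 and lowest 5 among cholangiocyte-like cells. The members and lists were chosen with earlier results of these data known. edgeR 4.0.16 supplied TMM factors as an alternative.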

Additional observations from a re-analysis of the deposited data

Results flagged for a closer look

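The ratio of CCl4 over healthy pointed in opposite directions in different cells for Ccn1 and Wwtr1, each with an interval that leaves out 1. Ccn1 was 1.36 in mesothelial-like cells, 0.578 in cells with endothelial markers and 0.278 in hepatocyte-like cells, where it rests on 4 CCl4 UMIs. In cells with endothelial markers the direction of Ccn1 rests on the healthy large-vessel cluster: without it the ratio was 0.965 [0.832, 1.11], and against the largest sinusoidal cluster 1.12 [0.961, 1.30], both including 1. Wwtr1 was 0.837 in mesothelial-like cells and 1.68 in cells with endothelial markers (1.77 without the large-vessel cluster). The difference between the cell types was not tested, since each group is 1 library. The immediate early genes summed to 9444 CPM in healthy and 13294 CPM in CCl4 mesothelial-like cells, and to 13875 and 9012 CPM in cells with endothelial markers, and their part in the Ccn1 ratios was not tested.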

How the results depend on the processing

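No paired analysis was possible because each group is 1 library. For the same reason no library could be left out. In mesothelial-like cells the log2 ratio of CCl4 over healthy kept its sign under 9 alternatives for Ccn1 (0.43 to 0.54), Ccn2 (0.33 to 0.44), Amotl2 (-1.28 to -1.15), Ajuba (-1.24 to -1.11), Tead1, Wwtr1 and Lats2. TMM factors, which moved the median of all genes by 0.11, gave 0.54 for Ccn1 and -1.15 for Amotl2. Yap1 turned from -0.09 to 0.011 under TMM factors and to 0.10 with every cell weighing the same. In cells with endothelial markers, the log2 ratio of Ccn1 turned from -0.79 to 0.16 against the largest healthy sinusoidal cluster alone, and was -0.05 without the healthy large-vessel cluster, both chosen after seeing the data. That of Ccn2 went from 0.26 to 1.499 and 1.309.

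In healthy cholangiocyte-like cells, leaving the 50 most abundant genes out of the total gave 1330 CPM for Ccn1, 457.0 for Ccn2 and 580.3 for Ankrd1, by construction. The values for Ccn1, Ccn2 and Ankrd1 were 975.8, 331.2 and 422.8 CPM with doublets kept and 971.6, 333.8 and 423.2 CPM at a mitochondrial limit of 10%. With every cell weighing the same, Ccn1 was 1015 and Ccn2 333.6 CPM. With each library clustered on its own, Ccn2 was 334.6 and Ankrd1 454.7 CPM, 72.4% of cells had a Ccn1 UMI and 39.97% an Ankrd1 UMI, and the variance over mean of Ankrd1 was 3.03. Without sub-cluster 4, an alternative chosen after seeing the data, Ccn1 was 1043 and Ankrd1 458.0 CPM, 72.2% of cells had a Ccn1 UMI, and r with the immediate early genes was 0.477 for Ccn1 and 0.104 for Ankrd1. That r ranged from 0.477 to 0.555 for Ccn1 and from -0.032 to 0.033 for Ccn2 over all alternatives run.

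Shares and variance follow the depth of thinning. At 1000 UMIs the shares of cells with a UMI of Ccn1, Ccn2 and Ankrd1 were 52.0%, 23.0% and 25.1% and the variance over mean 1.81, 1.63 and 2.22. At 4000 UMIs they were 83.1%, 50.9% and 49.7%, and 4.26, 3.54 and 5.43. Intervals cover counting error only, since UMIs of 1 library give no spread between animals.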
